A study of Homo sapiens with 12 samples.

Results

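The genes described here build the route by which a ribosome is brought to the membrane of the endoplasmic reticulum (ER) and passes its growing chain through it. They are 10 genes chosen by name: SEC61A1 and SEC61B of the translocon channel, SSR1, SSR2, SSR3 and SSR4 of the translocon-associated protein (TRAP) complex, SRP54, SRP68 and SRP72 of the signal recognition particle (SRP), and SRPRB of the SRP receptor. Each has 1 row among the 19305 RefSeq transcript rows of the count tables. The label describes what these genes do, and their identities were matched by symbol.

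The series is ribosome profiling, in which the mRNA fragments shielded by ribosomes are sequenced and counted over coding sequences. It holds 12 human libraries. The HEK293T line, from embryonic kidney, was treated with sodium arsenite, an oxidative stressor, in all 8 of its libraries. These carry the label eIF2A siRNA or control siRNA, and the mRNAs had been immunoprecipitated (IP) with CBP80, a subunit of the nuclear cap-binding complex, or with eIF4E, the cytoplasmic cap-binding protein. The H9 line, human embryonic stem cells, gave 4 libraries labelled eIF2A shRNA or control shRNA, with no IP and no arsenite named. Each of the 6 groups has 2 libraries, called set 1 and set 2. eIF2A is an initiation factor that can deliver the initiator tRNA to the ribosome. Nothing in the labels says whether a set was a culture of its own, and p-values therefore reflect only library-to-library spread, which could be technical.

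As background, SRP binds a signal sequence as it leaves the ribosome and docks the whole complex at the SRP receptor in the ER membrane. The receptor hands the ribosome to the Sec61 channel, through which the chain enters the lumen or the membrane, and the TRAP complex sits beside the channel and assists some of its substrates. Secretory and membrane proteins depend on this route, and the unfolded protein response can raise several of its genes through short promoter elements.

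Levels are given as counts per 1000000 coding reads (CPM). Coding reads ran from 4331459 to 5775177 per HEK293T library and from 937990 to 1878700 per H9 library. The 10 genes had 416 to 5123 reads each in a HEK293T library and 77 to 736 in an H9 library. Counts follow both the amount of an mRNA and its translation, and no mRNA-seq was used here. Fewer cells and less RNA per cell cannot be told apart in such bulk libraries.

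Some features of the libraries stand before every result. The CBP80 and eIF4E libraries of 1 siRNA label and set differed by about their sampling noise, with a chi-square per degree of freedom of 1.01 to 1.03 over 4 pairs, against 2.75 to 5.52 for libraries of different sets in the same group. They were therefore summed and counted as 1 sample, which leaves 2 HEK293T samples per siRNA label. The eIF2A shRNA and control shRNA libraries of the same set in H9 were almost as alike, at 1.04 and 1.07. Reads outside coding sequences made up 42.2 to 51.1% of unique reads in libraries labelled eIF2A siRNA and 35.2 to 40.1% in those labelled control siRNA. That share moved with the siRNA label, and its part in the results was not tested.

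The targeted gene did not follow its labels throughout. EIF2A (NM_032025) had 96.0 and 46.7 CPM in the samples labelled eIF2A siRNA sets 1 and 2, against 83.2 and 83.5 CPM in those labelled control siRNA. Only set 2 of the knockdown label lay below the controls. In H9 it had 110 and 68.2 CPM in the libraries labelled eIF2A shRNA, against 103 and 60.9 CPM in those labelled control shRNA, so the groups overlapped. Fitted changes were -0.33 ± 0.36 log2 units (SE) in HEK293T (edgeR adjusted p = 0.643) and 0.15 ± 0.28 in H9 (edgeR adjusted p = 0.999956). All directions below are therefore between labels.

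The H9 libraries carried most pluripotency markers, and no markers of HEK293T were listed. The summed level of 8 pluripotency markers was 2795 to 2971 CPM in H9 and 54.9 to 63.3 CPM in HEK293T, although POU5F1, a defining marker, was at 0 in all 12 libraries. Reads with more than 1 alignment, 94.6 to 94.9% of all counts in H9, were not counted to a gene. Whether POU5F1 reads were among them was not tested, so its 0 does not show that its footprints were absent. 5 fibroblast markers summed to 920 to 1210 CPM in H9 and 16.3 to 23.9 CPM in HEK293T. Of these, COL3A1 had 0 to 1.60 CPM in H9 and 1.39 to 3.34 CPM in HEK293T. 5 endoderm markers summed to 3.20 to 10.6 CPM in H9 and 54.3 to 63.7 CPM in HEK293T. FOXA2 among them reached 7.98 CPM in H9 and 0.351 CPM in HEK293T, and SOX17 was at 0 in all 12 libraries. 5 mesoderm markers summed to 235 to 296 CPM in H9 and 7.04 to 14.3 CPM in HEK293T, but KDR alone made up 234 to 295 CPM of the H9 sum, and EOMES and HAND1 were higher in HEK293T. 4 ectoderm markers summed to 449 to 1067 CPM in H9 and 64.1 to 71.9 CPM in HEK293T, of which NES alone made up 445 to 1066 CPM in H9, while PAX6 and OTX1 were higher in HEK293T. In H9, TBXT, EOMES, SOX17, GATA6 and PAX6 were at 0 in all 4 libraries. The part of other cell types in the results was not tested.

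The promoter letters of the genes are shown first, since elements of the unfolded protein response can drive genes of this route. All 10 genes matched RefSeq's promoter table (build GRCh38.p14), with 15 windows of 250 bases before and 50 after a start. On both strands, the UPRE letters TGACGTGG occurred in 2 of the 15 windows, 1 of SSR4 and 1 of SSR3, and in 0.729% of all 35116 windows in the table. Both genes also have windows without these letters. In each gene the match is in the window whose start lies furthest downstream, not in that of the outermost start. Both are shown because SSR4 was lower under the eIF2A siRNA label in HEK293T and SSR3 was not. The 30 bases around the match are printed along the strand of each gene, with the match in capitals. It reads CCACGTCA because the element lies on the opposite strand, and it thereby also holds the letters CCACG. The SSR4 stretch is chrX:153794528-153794557 (plus strand) and the SSR3 stretch is chr3:156554148-156554177 (minus strand).
SSR4: tcagggaggggCCACGTCAgtgctgccaga
SSR3: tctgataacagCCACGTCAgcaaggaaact

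The longer elements ERSE (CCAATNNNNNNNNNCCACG) and ERSE-II (ATTGGNCCACG) occurred in 0 of the 15 windows, and in 0.0769% and 0.0541% of all windows. The shorter element CCACG, part of both, was in 11 of 15 windows, from 8 of the 10 genes, against 38.1% of all windows, and CCAAT in 7 of 15 against 34.6%. A match is a stretch of letters, and a missing match says only that the letters are not in the window. The 150 bases before the first listed start are printed for the other genes that were lower under the eIF2A siRNA label, so that their letters can be compared. They lie on the plus strand at chr3:128051491-128051640 (SEC61A1, 1 of its 2 windows), chr9:99222132-99222281 (SEC61B) and chr3:133805665-133805814 (SRPRB). Capitals mark CCACG, which among these 3 stretches is in that of SRPRB. The other SEC61A1 window, not printed, holds CCACG on the opposite strand at -84 to -80 from its start. Within the printed stretches, G and C made up 50, 58.7 and 62.0% of their bases, in that order. The median over the same 150 bases of all 35116 windows was 60%. For the other SEC61A1 window this share was not computed.
SEC61A1: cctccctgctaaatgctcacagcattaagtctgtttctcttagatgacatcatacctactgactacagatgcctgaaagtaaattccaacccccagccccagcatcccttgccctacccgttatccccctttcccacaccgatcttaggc
SEC61B: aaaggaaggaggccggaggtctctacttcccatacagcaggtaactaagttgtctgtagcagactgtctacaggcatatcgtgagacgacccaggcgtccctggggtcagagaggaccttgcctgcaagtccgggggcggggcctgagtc
SRPRB: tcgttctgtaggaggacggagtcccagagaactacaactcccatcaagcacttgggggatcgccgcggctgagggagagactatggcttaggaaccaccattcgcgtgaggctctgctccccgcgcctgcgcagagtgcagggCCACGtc

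In arsenite-treated HEK293T, footprints over both channel genes, the SRP receptor subunit SRPRB and the TRAP subunit SSR4 fell under the eIF2A siRNA label, while the 3 SRP proteins differed little between labels. Of the 10 genes, 4 were lower and 0 higher at an adjusted p under 0.05. Over all 12331 genes tested, 12.4% passed in either direction, 6.29% lower and 6.15% higher. The 10 genes were chosen with earlier results of these data known, so a share above that of all genes is not independent evidence. The median log2 fold change of the 10 genes was -0.27, against 0.0037 over all genes. Fold changes here are scaled by TMM, while CPM are not. With library sizes alone, the median of all genes was 0.091, and 71.5% of all calls were higher against 49.4% under TMM, yet the same count of 4 of the 10 genes was lower.

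SEC61A1 (NM_013336) encodes the channel through which nascent chains cross. It had 200 and 193 CPM in sets 1 and 2 labelled eIF2A siRNA, against 284 and 293 CPM in those labelled control siRNA. The groups did not overlap. Single IP libraries had 191 to 206 CPM under the eIF2A label and 281 to 296 CPM under the control label. They repeat the same samples and are not added replicates. The fitted change was -0.64 ± 0.14 log2 units (SE), a ratio of 0.641 (edgeR adjusted p = 0.000721).

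SEC61B (NM_006808), the small tail-anchored subunit beside the channel, followed the same direction. It had 125 and 133 CPM under the eIF2A siRNA label, against 167 and 193 CPM under the control label. The control samples were further apart than the eIF2A-labelled ones, but no sample of one label reached the other. Its change was -0.57 ± 0.14 (edgeR adjusted p = 0.00284).

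SRPRB (NM_021203) is the membrane-anchored GTPase subunit that holds the SRP receptor in the ER. It had 99.9 and 113 CPM under the eIF2A siRNA label, against 166 and 164 CPM under the control label. This was the largest fall among the 10 genes, at -0.71 ± 0.14 log2 units, a ratio of 0.610 (edgeR adjusted p = 0.000177). Its group mean was 107 ± 9.63 CPM under the eIF2A siRNA label and 165 ± 1.72 CPM under the control label (SD, n = 2 each).

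Of the 4 TRAP subunits, SSR4 alone passed the test, and differences between subunits were not tested. SSR4 (NM_001204527), the delta subunit, had 169 and 177 CPM under the eIF2A siRNA label, against 228 and 262 CPM under the control label, with no overlap. It fell by 0.59 ± 0.14 on the log2 scale (edgeR adjusted p = 0.00192). SSR2 (NM_003145), the beta subunit, had 684 and 826 CPM against 854 and 972 CPM under the control label. The groups did not overlap, but the eIF2A-labelled set 2 came close to the control set 1, and the change of -0.36 ± 0.15 did not pass (edgeR adjusted p = 0.0925).

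SSR1 (NM_003144), the alpha subunit, had 630 and 723 CPM under the eIF2A siRNA label, against 757 and 696 CPM under the control label. These groups overlapped, with set 2 higher and set 1 lower under the eIF2A label, and the fitted change was -0.19 ± 0.14 (edgeR adjusted p = 0.421). SSR3 (NM_001308197), the gamma subunit, had 287 and 260 CPM under the eIF2A siRNA label, against 242 and 207 CPM under the control label. It lay on the other side of 0 from the other 3 subunits at 0.20 ± 0.14, without passing the test (edgeR adjusted p = 0.357).

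Ratios of SSR3 to the other TRAP genes within a sample do not depend on library size or scaling. SSR3 had 1.70 and 1.47 reads per SSR4 read under the eIF2A siRNA label, against 1.06 and 0.788 under the control label. Per SSR2 read, SSR3 had 0.420 and 0.315 reads against 0.283 and 0.212 under the control label, and per SSR1 read 0.456 and 0.360 against 0.320 and 0.297. In each of the 3 ratios both eIF2A-labelled HEK293T samples lay above both controls. SSR3 CPM alone did so too, and CPM did not overlap between labels in 56.6% of all genes tested. No such share was computed for ratios of other genes. In H9 the SSR3 to SSR4 ratio was 0.945 and 0.747 under the eIF2A shRNA label, against 0.898 and 0.603 under the control label, and the groups overlapped. These ratios are uncorrected for gene length, share SSR3 as numerator, were formed after the values had been seen and were not tested. They carry no information on subunit stoichiometry.

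**Figure D1:**
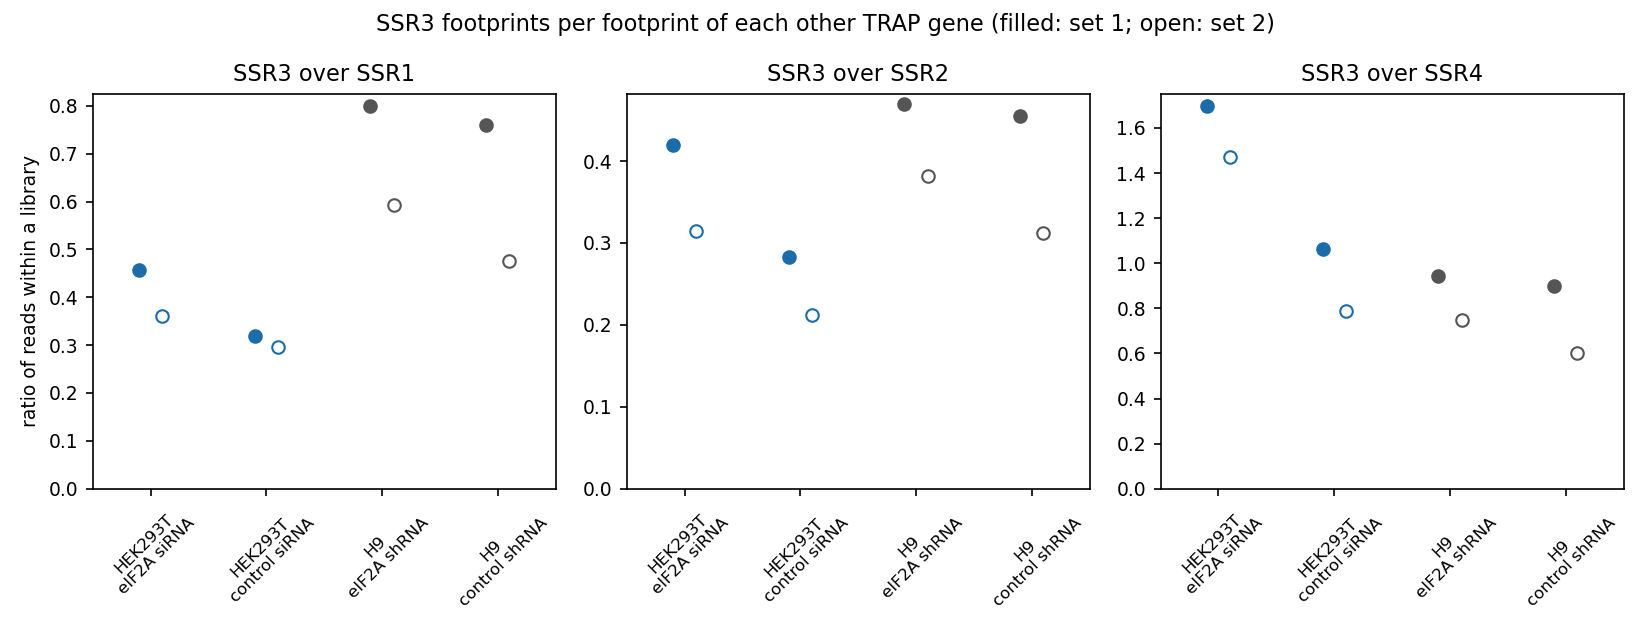
Ratio of SSR3 reads to reads of SSR1, SSR2 and SSR4 within each sample (vertical axes, no unit, each from 0), by label, with both IP libraries of a HEK293T sample summed; filled points are set 1 and open points set 2. In HEK293T the eIF2A siRNA points lie above the control siRNA points in all 3 panels, for SSR4 at 1.70 and 1.47 against 1.06 and 0.788. In H9 the points of both labels overlap in all 3 panels.

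The SRP proteins gave the smallest differences. SRP54 (NM_003136), the GTPase that binds the signal sequence, had 91.3 and 107 CPM under the eIF2A siRNA label, against 106 and 96.5 CPM under the control label. SRP68 (NM_014230) and SRP72 (NM_006947) form a heterodimer on the SRP RNA. SRP68 had 194 and 171 CPM against 169 and 166 CPM under the control label, and SRP72 had 124 and 105 CPM against 118 and 104 CPM.

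SRP54 and SRP72 overlapped between labels, and SRP68 was slightly higher in both eIF2A-labelled samples. The fitted changes were -0.11 ± 0.14, 0.04 ± 0.13 and -0.05 ± 0.13 for SRP54, SRP68 and SRP72 (edgeR adjusted p = 0.636, 0.888 and 0.851). Their 95% intervals ran from -0.38 to 0.16, from -0.23 to 0.31 and from -0.32 to 0.22 log2 units. The direction of SRP72 turned with library sizes alone, to 0.04. In all, CPM did not overlap between labels for 7 of the 10 genes, 5 lower and 2 higher, against 56.6% of all genes tested.

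**Figure D2:**
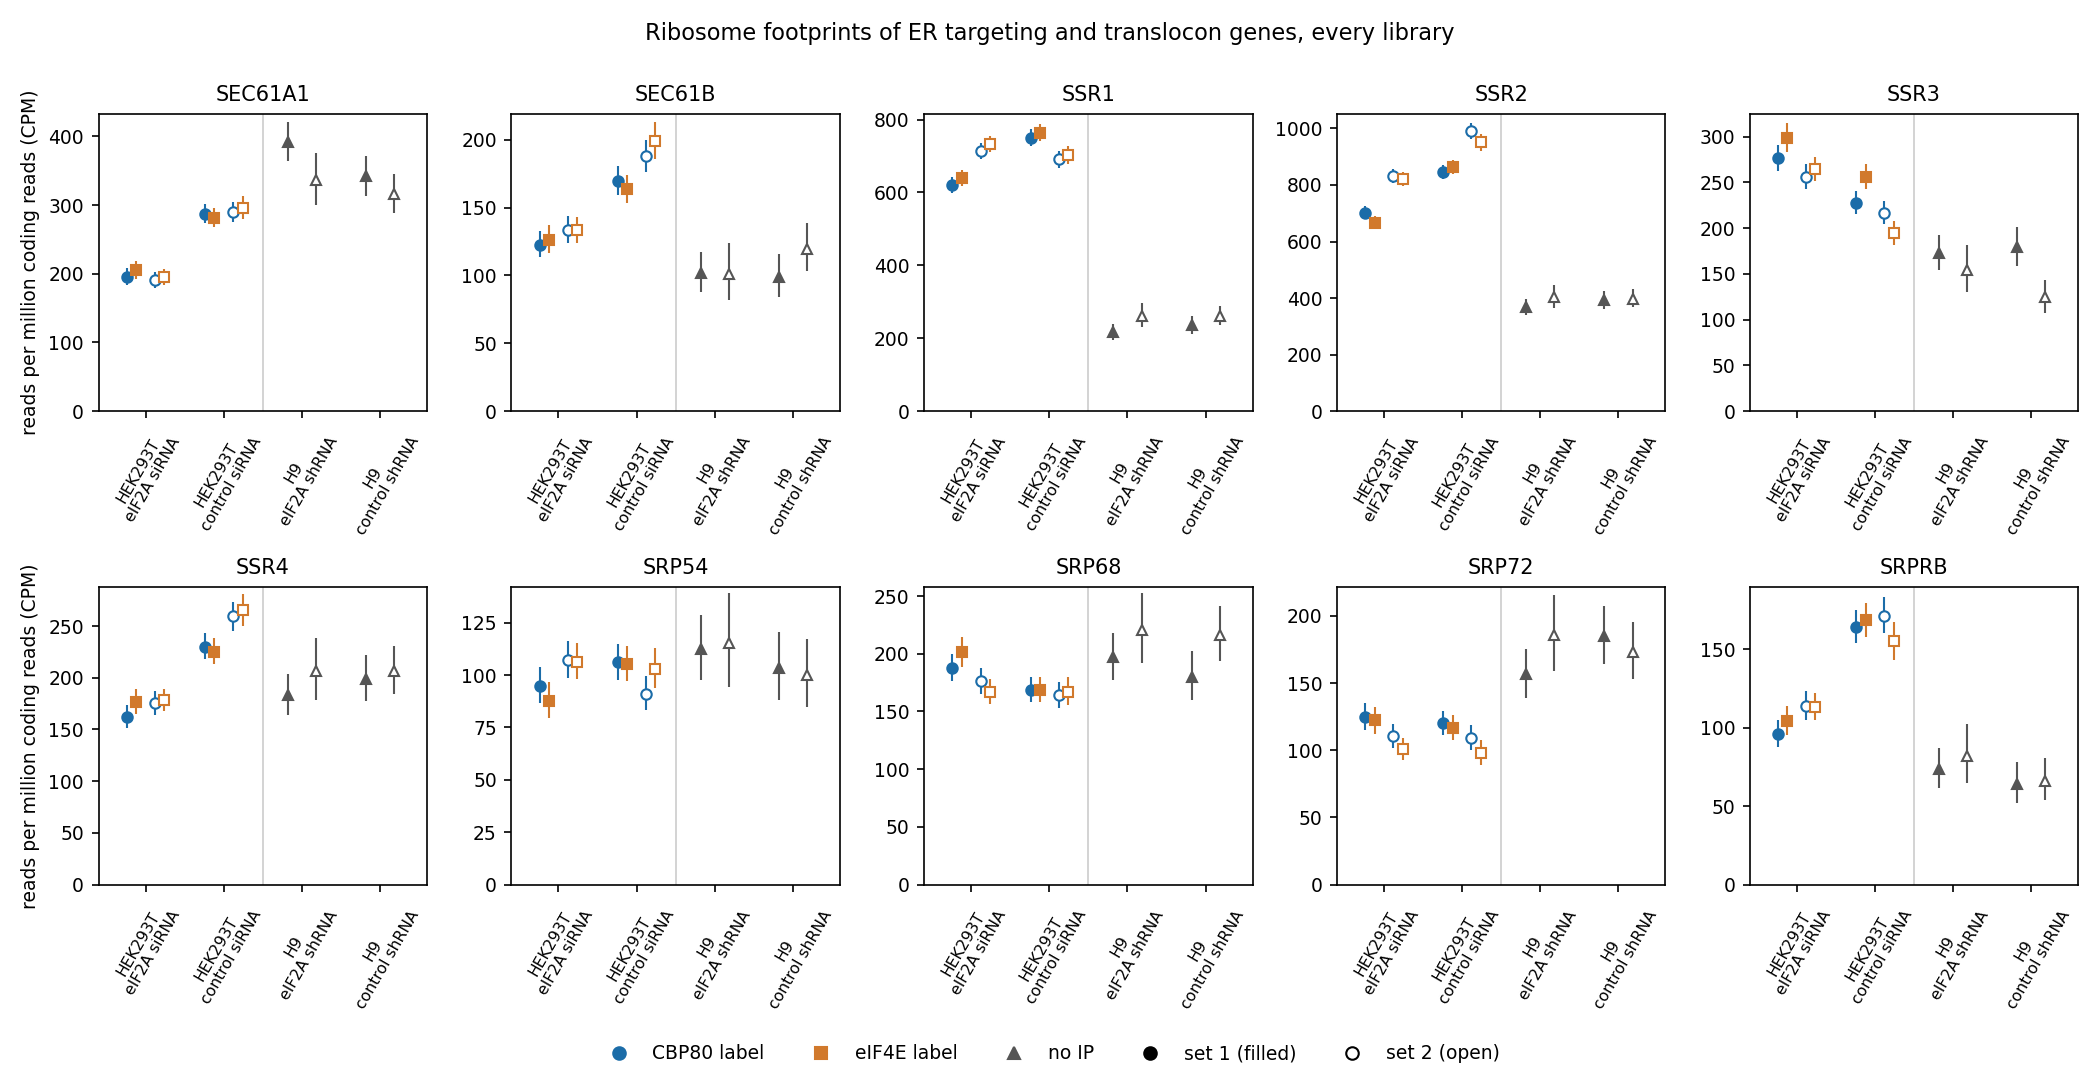
CPM of each gene (vertical axes from 0) in all 12 libraries, with 95% Poisson intervals that cover counting error only; circles are CBP80 IP, squares eIF4E IP and triangles H9 libraries without IP, filled for set 1 and open for set 2. For SEC61A1, SEC61B, SSR4 and SRPRB every HEK293T library labelled eIF2A siRNA lies below every one labelled control siRNA. The CBP80 and eIF4E libraries of 1 sample lie close together and are not separate replicates.

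These calls rest on few samples. Without the control siRNA set 2 sample, 1 of the 10 genes, SRPRB, stayed lower, and 75 genes passed in all in place of 1534. Without the eIF2A siRNA set 1 sample 3 of the 10 stayed lower, SEC61B being lost (edgeR adjusted p = 0.0750), and 287 genes passed in all. With the CBP80 libraries alone and with the eIF4E libraries alone, SEC61A1, SEC61B, SSR4 and SRPRB were lower in each fit, and SEC61A1 changed by -0.66 and -0.61. Both fits draw on the same samples.

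The remaining genes of ER entry were read from a list of 38, of which 37 were found and tested, with BAG6 not analysed here. Of these 37 genes, 8 were lower and 0 higher under the eIF2A siRNA label, against the 6.29% and 6.15% of all genes. Their median log2 fold change was -0.26. This list too was chosen with earlier results of these data known, so its share is not independent evidence. SRPRA (NM_003139), the other subunit of the SRP receptor, had a mean of 167 ± 3.35 CPM under the eIF2A siRNA label and 214 ± 5.75 CPM under the control label (SD, n = 2 each). Its change was -0.44 ± 0.14 (edgeR adjusted p = 0.0198), so both receptor genes were lower. SRP9, SRP14 and SRP19, the other listed SRP proteins, did not pass.

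Among the channel and its partners, 0 of 6 genes passed. SEC61G (NM_014302), the third channel subunit, had a mean of 303 ± 46.2 CPM under the eIF2A siRNA label and 319 ± 20.4 CPM under the control label (SD, n = 2 each), a change of -0.15 ± 0.14 (edgeR adjusted p = 0.512). SEC61A2, the paralogue of SEC61A1, changed by -0.24 ± 0.16 (edgeR adjusted p = 0.357). Whether SEC61G differed in its change from SEC61A1 and SEC61B was not tested.

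Other insertion routes supplied most of the lower genes. In the ER membrane complex (EMC), which inserts tail-anchored and multipass proteins, 4 of 9 genes were lower. EMC10 changed by -0.65 ± 0.14 (edgeR adjusted p = 0.000891), EMC6 by -0.80 ± 0.26 (0.0317), EMC7 by -0.44 ± 0.14 (0.0281) and EMC1 by -0.43 ± 0.14 (0.0248). EMC6 had means of only 3.49 CPM under the eIF2A siRNA label and 5.70 CPM under the control label, and its change was -0.27 in the eIF4E libraries alone.

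GET1, the membrane receptor subunit of the tail-anchored protein route, had the largest fall of the list at -0.96 ± 0.19 (edgeR adjusted p = 0.000321), and it was the only one of 6 GET genes to pass. Its means were 8.85 ± 0.694 CPM under the eIF2A siRNA label and 16.2 ± 1.59 CPM under the control label (SD, n = 2 each). TMEM208, of the SRP-independent SND route, changed by -0.67 ± 0.14 (edgeR adjusted p = 0.000714). Of 5 signal peptidase genes, which cut signal sequences off, SEC11A was lower at -0.49 ± 0.14 (edgeR adjusted p = 0.0106). None of 6 multipass translocon genes passed, with changes of -0.41 to -0.20 and a lowest edgeR adjusted p of 0.0718.

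These 8 calls depended on single samples and on the scaling. Without the control siRNA set 2 sample 0 of the 37 were lower, and without eIF2A siRNA set 1 and without control siRNA set 1 there were 3 and 4. With library sizes alone 4 stayed lower, with SRPRA (edgeR adjusted p = 0.0578), EMC1, EMC6 and EMC7 lost, and DESeq2 called 5.

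**Figure D3:**
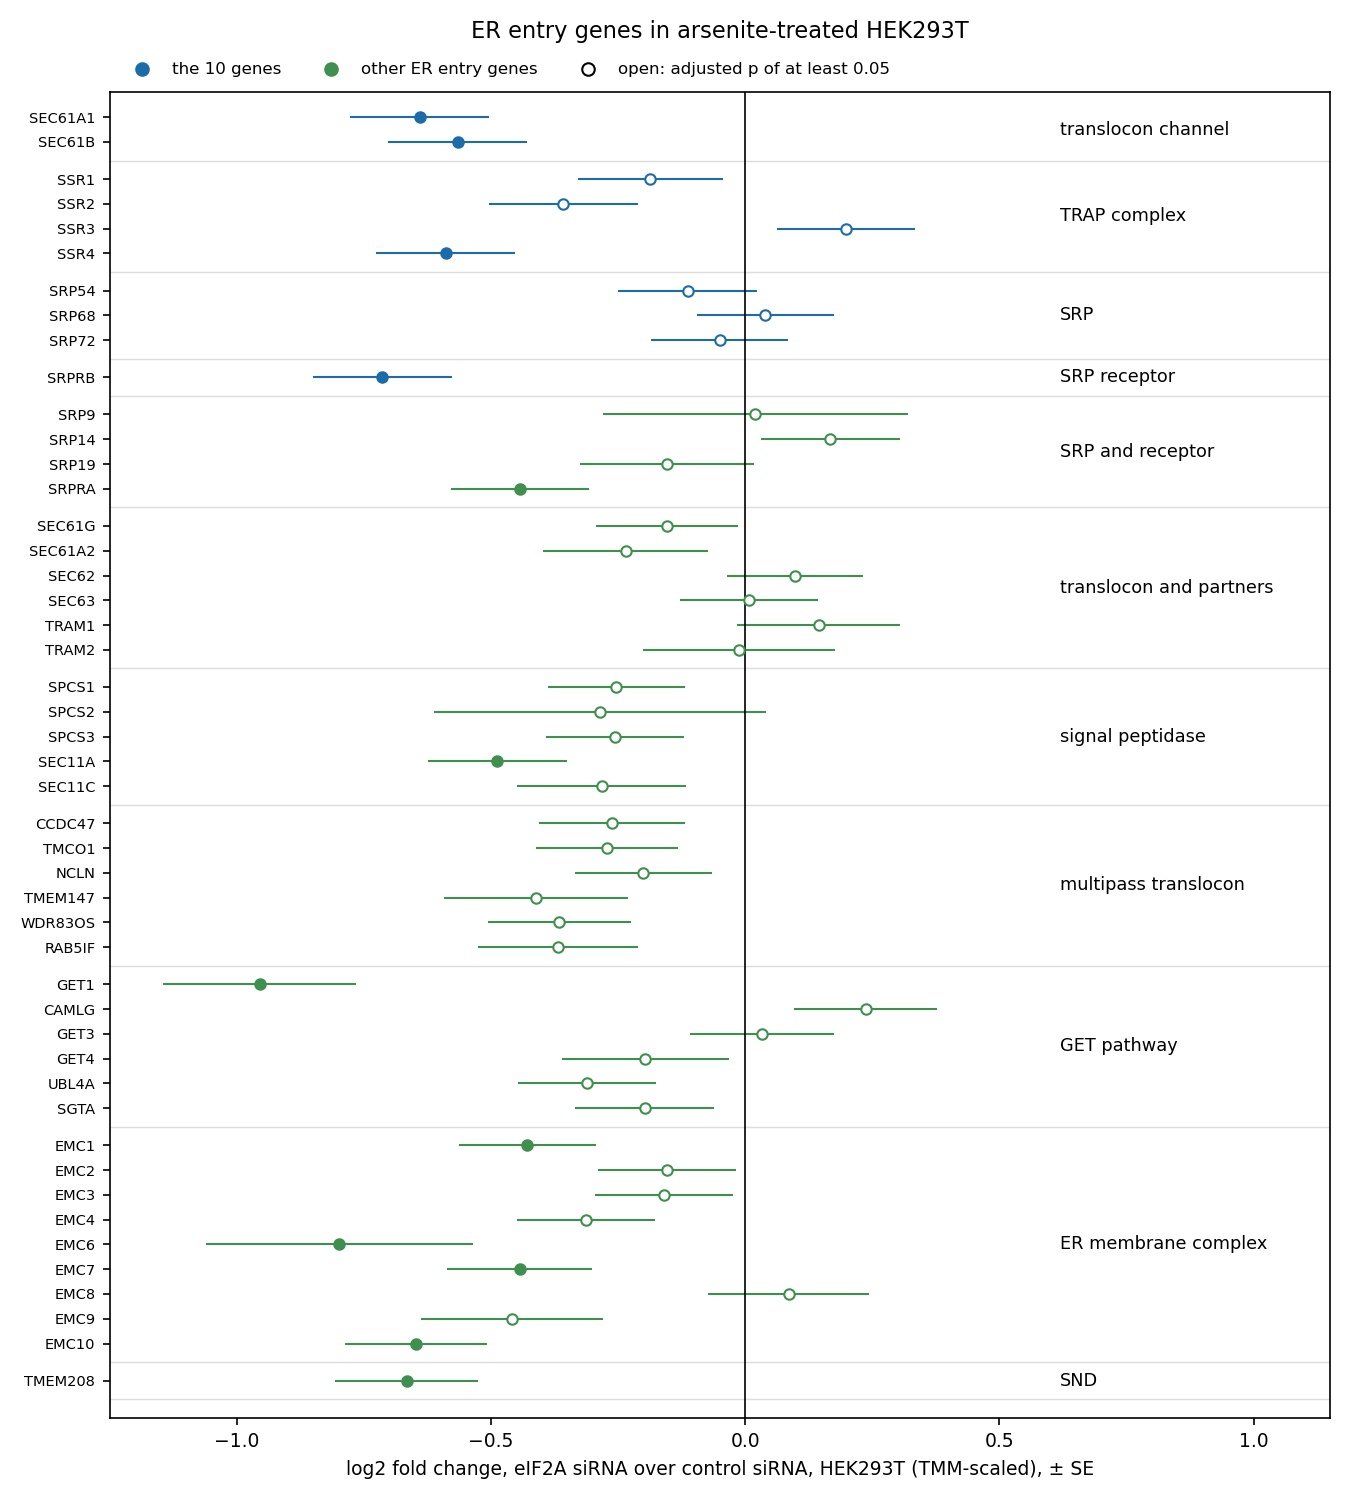
Log2 fold change ± SE (horizontal axis, eIF2A siRNA over control siRNA in HEK293T, TMM-scaled) of the 10 genes in blue and of 37 other ER entry genes in green, grouped by function; filled points have an edgeR adjusted p under 0.05. Filled points are all left of 0, 4 of them among the 10 genes and 8 among the others, with GET1 lowest at -0.96.

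No difference between the CBP80 and eIF4E labels was detectable for these genes. Per the series' design text, HEK293T mRNAs bound by CBP80 or by eIF4E were precipitated before profiling. Over the 8 HEK293T libraries the changes of CBP80 over eIF4E ranged from -0.05 (SSR3) to 0.09 (SRP72) log2 units, and 0 of the 10 genes passed, against 0% of 11778 genes tested with edgeR. At an unadjusted p under 0.05 there were 99 genes, or 0.841%, fewer than that threshold gives by chance, and DESeq2 called 1. This fit has no block for the pairs of IP libraries of the same siRNA label and set, which can widen its intervals. With these pairs as a replicate block, 0 of the 10 genes passed, though some other genes did. Intervals of 95% for the 10 genes lay within -0.24 to 0.27 log2 units.

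Sample by sample, the CBP80 to eIF4E ratio of CPM ran from 0.885 to 1.11 over 40 ratios, and the counting interval held 1 in 35 of them. Of the 5 others 3 belonged to SSR3, and these pointed both ways: 0.925 in eIF2A siRNA set 1, and 0.890 and 1.11 in control siRNA sets 1 and 2. The difference between IPs in the effect of the siRNA label was tested as an interaction. It passed in 0% of 11778 genes with edgeR, with 96 at an unadjusted p under 0.05 and 0 with DESeq2, again without a block for the pairs. Among the 10 genes it ran from -0.11 for SRPRB to 0.13 for SRP54.

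In H9 the eIF2A shRNA label brought no call. Of the 10 genes 0 passed, against 0% of 9751 genes tested with edgeR, with 84 genes at an unadjusted p under 0.05 and 0 by DESeq2. The median change of the 10 genes was 0.016 log2 units and that of all genes 0.0011. CPM did not overlap between labels for 2 of the 10 genes, both higher, against 23.7% of all genes.

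The channel genes were close between the H9 labels. SEC61A1 had 392 and 337 CPM in eIF2A shRNA sets 1 and 2, against 342 and 316 CPM in the control shRNA sets, a change of 0.15 with a 95% interval of -0.13 to 0.44. SEC61B had 102 and 101 CPM against 98.9 and 120 CPM in the controls, a change of -0.11 with an interval of -0.50 to 0.28. Both overlapped.

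SRPRB had 73.5 and 82.1 CPM under the eIF2A shRNA label, against 64.0 and 66.2 CPM under the control label. It was higher in both, with a change of 0.25 and an interval of -0.16 to 0.65. SRP54, at 112 and 115 CPM against 103 and 99.9 CPM in the controls, was the other gene whose groups did not overlap. Its change of 0.16 had an interval of -0.19 to 0.51.

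The other SRP genes overlapped between H9 labels. SRP68 had 197 and 221 CPM under the eIF2A shRNA label, against 180 and 216 CPM under the control label. SRP72 had 156 and 186 CPM under the eIF2A shRNA label, against 185 and 173 CPM under the control label. Their changes were 0.07 and -0.08, with intervals of -0.28 to 0.41 and -0.42 to 0.26.

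The 4 TRAP genes also overlapped. SSR1 had 216 and 261 CPM under the eIF2A shRNA label, against 235 and 261 CPM under the control label. SSR2 had 368 and 405 CPM under the eIF2A shRNA label, against 393 and 398 CPM under the control label. SSR1 and SSR2 changed by -0.07 and -0.04. SSR3 had 173 and 155 CPM under the eIF2A shRNA label, against 179 and 124 CPM under the control label, and its set 2 control stood lowest. SSR4 had 183 and 207 CPM under the eIF2A shRNA label, against 199 and 206 CPM under the control label. SSR3 and SSR4 changed by 0.12 and -0.06, and the intervals of the 4 TRAP genes lay within -0.40 to 0.54. With these widths, a change of the size seen for SRPRB in HEK293T lay outside the H9 interval of each of the 10 genes. EIF2A itself was not called lower under the eIF2A shRNA label, so these intervals describe labels and not a shown knockdown.

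Whether the label effect differed between the lines was tested directly. Of the 10 genes 0 passed, against 0% of 12911 genes with edgeR, with 1059 genes at an unadjusted p under 0.05 and 0 by DESeq2. The difference, HEK293T minus H9, was -0.94 ± 0.24 for SRPRB and -0.78 ± 0.19 for SEC61A1 (edgeR adjusted p = 0.206 for each). SSR4 and SEC61B gave -0.51 and -0.44 (edgeR adjusted p = 0.525 and 0.621), and SSR3 gave 0.09. This fit, which has no block for set, did not show that the label effect differed between the lines, and a value with a block is given with the processing alternatives. The line, arsenite, IP and kind of silencing RNA change together and cannot be told apart.

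**Figure D4:**
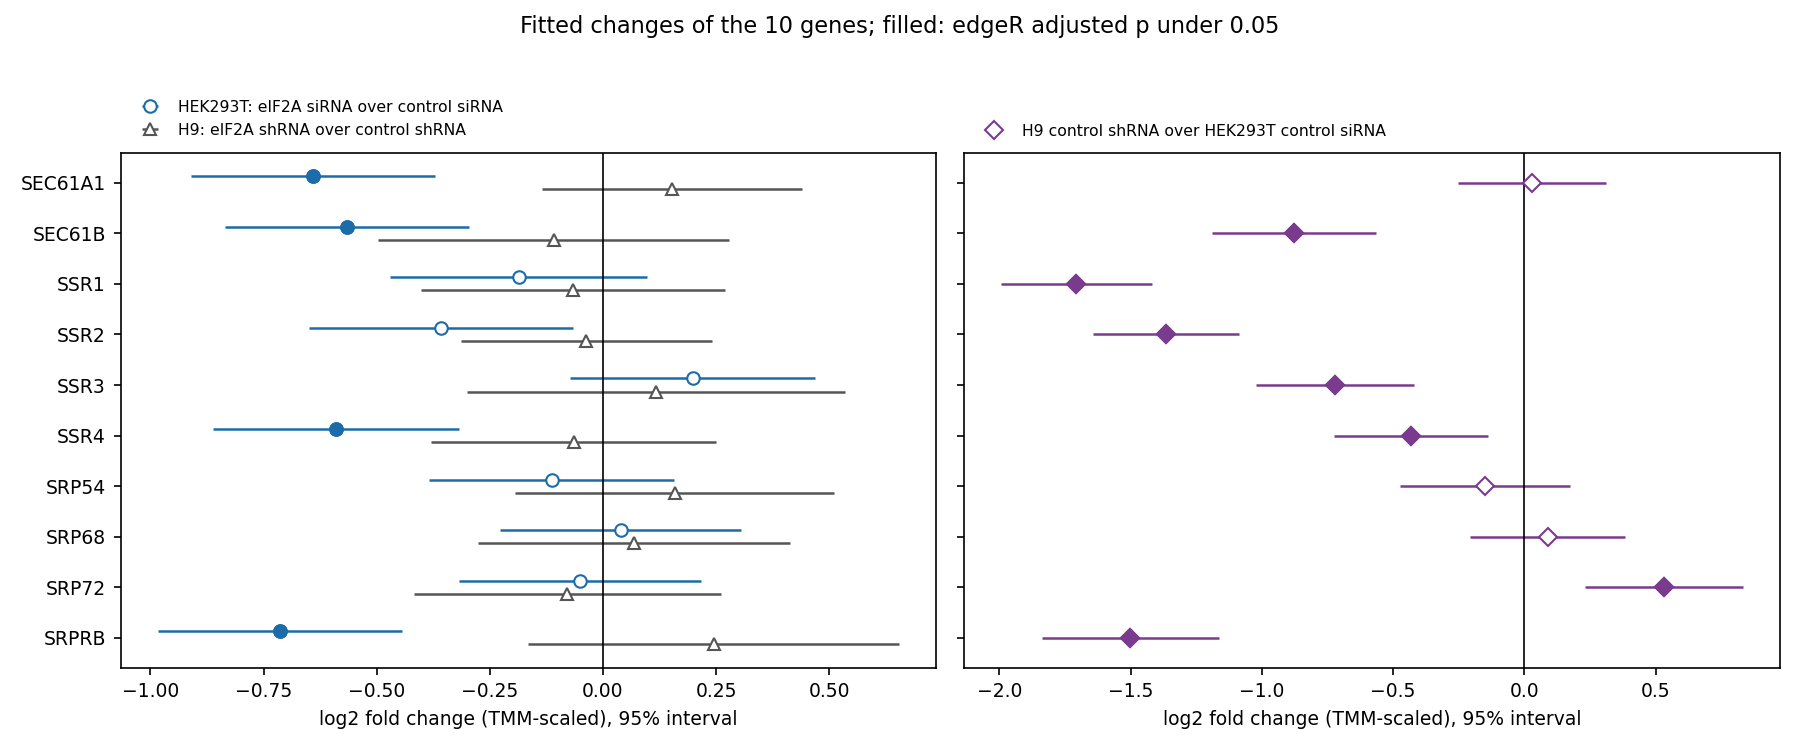
Log2 fold changes of the 10 genes with 95% intervals (horizontal axes, TMM-scaled), left for eIF2A siRNA over control siRNA in HEK293T (circles) and eIF2A shRNA over control shRNA in H9 (triangles), right for H9 control shRNA over HEK293T control siRNA (diamonds); filled symbols have an edgeR adjusted p under 0.05. On the left only SEC61A1, SEC61B, SSR4 and SRPRB in HEK293T are filled, and on the right 7 of the 10 genes are.

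The control libraries of both lines were compared for the level of each gene. The line, arsenite, IP and kind of control RNA change together in this comparison and cannot be told apart. In H9 control shRNA against HEK293T control siRNA, 6 of the 10 genes were lower and 1 higher, while 71.8% of 12307 genes passed in either direction, 37.3% lower and 34.5% higher. Calls were thus common among all genes in this comparison, and how many genes changed by as much as these was not computed. Library sizes alone in place of TMM moved the median of all genes by 0.158 log2 units in this comparison, with the median at -0.067 under TMM.

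SSR1 was lowest in H9 relative to HEK293T. It had 235 and 261 CPM in H9 control shRNA, against 757 and 696 CPM in HEK293T control siRNA, a change of -1.71 ± 0.15 (edgeR adjusted p = 4.53e-30). SRPRB and SSR2 followed at -1.50 ± 0.17 and -1.37 ± 0.14 (edgeR adjusted p = 1.31e-17 and 5.46e-21). SRPRB stood at 65.1 ± 1.51 CPM in H9 and 165 ± 1.72 CPM in HEK293T, and SSR2 at 396 ± 3.72 CPM in H9 and 913 ± 83.7 CPM in HEK293T (SD, n = 2 each).

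SEC61B changed by -0.88 ± 0.16, SSR3 by -0.72 ± 0.15 and SSR4 by -0.43 ± 0.15 (edgeR adjusted p = 1.14e-07, 5.81e-06 and 0.00616). The call of SSR4 was lost with library sizes alone (edgeR adjusted p = 0.0849) and without either the HEK293T control set 2 or the H9 control set 1 (edgeR adjusted p = 0.145 and 0.0525). SRP72 was the gene that was higher in H9, at 179 ± 8.32 CPM in H9 and 111 ± 10.1 CPM in HEK293T (SD, n = 2 each), a change of 0.53 ± 0.15 (edgeR adjusted p = 0.00101). SEC61A1, SRP54 and SRP68 gave 0.03 ± 0.14, -0.15 ± 0.16 and 0.09 ± 0.15 (edgeR adjusted p = 0.862, 0.412 and 0.601). The TRAP genes were thus all called lower in H9 controls, SSR4 not in every setting, and of the SRP proteins only SRP72 was called. Since 71.8% of all genes passed in this comparison, these calls do not set either complex apart. A difference between the complexes was not tested.

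Some reads could belong to neighbours or copies. The counter's strand setting is not given in the sources used here, and the spans of 4 of the 10 genes overlap another coding gene in RefSeq: SEC61A1 with RUVBL1, SSR4 with IDH3G, SRP68 with GALR2, and SRPRB with TF and RAB6B. These are overlaps of gene spans, not of the counted coding sequences, and whether reads were assigned by strand is not known here. SSR1, SSR4, SRP68 and SRP72 have named pseudogenes, and reads with more than 1 alignment were not counted to a gene.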

How the data were processed

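The deposited values are whole-number read counts per coding sequence, 1 RefSeq transcript per row, not normalized. The submitters' processing notes name cutadapt, STAR 2.5.2b and the build hg19. Of the counter, strand setting and annotation release nothing is said in the sources used here. Rows naming no gene held 87.5 to 89.5% of counts in HEK293T and 96.2 to 96.5% in H9 and stayed out of library sizes and tests.

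Of 19305 accessions, 18888 were named through RefSeq's table (GRCh38.p14) and 417 kept their accession. The test was edgeR 4.0.16 in R 4.3.3 (filterByExpr, TMM, estimateDisp, robust glmQLFit, glmQLFTest), with Benjamini-Hochberg adjustment over all genes tested and a threshold of 0.05. The siRNA comparison used the 4 summed HEK293T samples, the IP comparisons all 8 HEK293T libraries. CPM and its group means use plain coding totals. Intervals of 95% on ratios and single libraries cover counting error only, as no molecular identifiers were used. A count of 0 was read, by a fixed rule separate from these intervals, as up to 3 counts, or 0.519 to 3.20 CPM. Levels were not compared between genes, since coding lengths were not used here, so the planned scaling by codons was not made.

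The members, lists and tests were chosen with earlier results of these data known, and CCAAT was searched in addition to the planned motifs. Named genes are the 10 members, EIF2A, every other listed ER entry gene past the threshold in the summed comparison, and SEC61G, SEC61A2 and SRPRA. Alternatives were RLE scaling, library sizes alone, no count filter, DESeq2 1.42.0, leaving out each sample, the set as a block, 8 libraries as samples and each IP alone. Libraries of 1 siRNA label and set pair across IPs: their deviations correlated at 0.683 to 0.889 in 4 pairs, and with siRNA and set as a replicate block 6 genes passed in the IP comparison in place of 0, with 0 of the 10 genes.

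The fits were tested on simulated counts in which 200 genes differed 2-fold, and recovered 83.0% in the summed HEK293T comparison (12331 genes), 92.5% between IPs and 50% in the IP interaction (11778 genes each), 71.0% in H9 (9751 genes), 62.0% between lines (12307 genes) and 34.0% in the interaction of lines (12911 genes).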

Additional observations from a re-analysis of the deposited data

How the results depend on the processing

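No called change of a named gene turned direction under any alternative. Of 437 values of single genes under alternatives, 374 kept direction and side of the threshold, 35 lost a call, 5 gained one and 23 turned, all among changes that had not passed; the cause was not tested. In the HEK293T siRNA comparison, 1534 genes passed as reported, 735 with DESeq2, 2990 with the set as a replicate block, 2702 with 8 libraries as samples, 863 with CBP80 libraries only, and 75 to 2086 with 1 sample left out. Of the 10 genes 1 to 5 were lower with 1 sample left out, and 5 with the replicate block, SSR2 being added (edgeR adjusted p = 0.0140). The deviations of same-numbered sets correlated at 0.463 in HEK293T and 0.694 in H9, but 2 sets were not taken to pair. Of the 37 other ER entry genes 8 were lower as reported, 4 with library sizes alone, 5 with DESeq2, 16 with the replicate block, 14 with 8 libraries as samples and 0 to 12 with 1 sample left out. Between IPs, 0 genes passed as reported, 3 without the count filter, 1 with DESeq2, 6 with the replicate block and 0 to 2 with 1 library left out. For the interaction of lines, 0 genes passed as reported, 0 to 1 with 1 sample left out, and 571 with the set as a replicate block within lines, 3 of the 10 genes among them, all lower.

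Turned values were these. In HEK293T with library sizes alone SRP72 was at 0.0394, and with 1 sample left out SRP72 ranged from -0.13 to 0.0254, SRP54 from -0.29 to 0.0368, SRP68 from -0.0038 to 0.0731, SEC61G from -0.38 to 0.0352 and EIF2A from -0.88 to 0.0596. In H9 with 1 library left out SEC61B ranged from -0.25 to 0.0471, SSR1 from -0.21 to 0.0868, SSR2 from -0.12 to 0.0478, SSR3 from -0.11 to 0.39, SSR4 from -0.16 to 0.0425, SRP68 from -0.0676 to 0.22, SRP72 from -0.21 to 0.0634 and EIF2A from -0.25 to 0.58. Between lines SRP54 was at 0.00742 with library sizes alone and SEC61A1 at -0.0310 without the count filter. With 1 sample left out SEC61A1 ranged from -0.0149 to 0.0936, SRP68 from -0.0424 to 0.26 and EIF2A from -0.57 to 0.16. A lone sample left in a group was assumed to vary like the others. H9 libraries are shallower, with 77 to 736 reads per gene against 416 to 5123 in HEK293T, which limits the changes that could be seen there.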
